A study of Gallus gallus with 4 samples.

Results

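Dense H3K27ac domains are stretches of the chick genome in which many peaks of acetylated histone H3 lysine 27 (H3K27ac) lie close together. They were taken from the H3K27ac peak list of otic-epibranchial progenitors (OEPs), the cranial ectoderm that gives rise to the inner ear and the epibranchial ganglia. All H3K27ac peaks on the same autosome were joined where the gap between neighbours was 12.5 kb or less, and joined domains with 10 or more H3K27ac peaks were kept. This gave 625 dense domains out of 16530 joined domains, of which 7276 held 2 to 9 peaks and 8629 were single peaks. The dense domains held 10105 of the 43416 autosomal H3K27ac peaks, and the whole list held 45426. Within them, 7832 peaks shared no base with a peak of trimethylated lysine 4 (H3K4me3) or of trimethylated lysine 27 (H3K27me3). They are called H3K27ac-only peaks below, and they are 24.6% of the 31816 such peaks on autosomes. The domains were selected on the positions and the number of H3K27ac peaks in that list, so the number, width and strength of their H3K27ac peaks are given as a description. The other marks entered only the definition of the H3K27ac-only peaks.

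The tissue was dissected from embryos of 8 to 9 somites, with about 200 pieces per sample, and profiled by chromatin immunoprecipitation and sequencing (ChIP-seq) with 1 library each for H3K27ac, H3K4me3 and H3K27me3. The labels give no genotype, agent or treatment for the embryos. An input library, sequenced without an antibody, completes the 4 libraries and enters no comparison here. Each library pools many pieces of tissue, there is no replicate, and the read depth is unknown because the lists hold peaks and not reads. Ranges in brackets are 95% intervals by the exact Clopper-Pearson method. They take in counting error alone, as if neighbouring peaks were independent, and nothing of the spread between embryos. The identity of the tissue could not be checked against marker genes, because these lists measure no expression and no gene annotation of their genome build was used.

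H3K27ac marks the nucleosomes beside active enhancers and active promoters. H3K4me3 marks promoters, so an H3K27ac peak without it is often read as a distal element, while H3K27me3 is laid down by Polycomb complexes at silenced developmental genes. Superenhancers are regions with a high density of H3K27ac, known from many cell types for lying near genes of cell identity. The rule used here counts peaks and is not a call of superenhancers.

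The typical dense domain was a stretch in which short acetylated segments alternated with longer gaps. The number of H3K27ac peaks per domain had a median of 14, with quartiles of 11 and 19 and a maximum of 138. The extent ran from 29.4 to 651 kb with a median of 74.0 kb and quartiles of 58.2 and 99.7 kb. H3K27ac peaks covered a median of 26.2% of a domain, from 9.29% in the sparsest to 68.4% in the fullest. Most of a domain's length was thus outside any acetylated peak. Counted per length, the median domain held 19.3 peaks per 100 kb. Neighbouring peaks inside were separated by a median gap of 2.98 kb, against 4.17 kb in the domains of 2 to 9 peaks. Gaps of 2 kb or less made up 33.9% of the gaps in dense domains and 24.1% in the domains of 2 to 9 peaks. No gap in either group was under 1.01 kb.

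**Figure D1:**
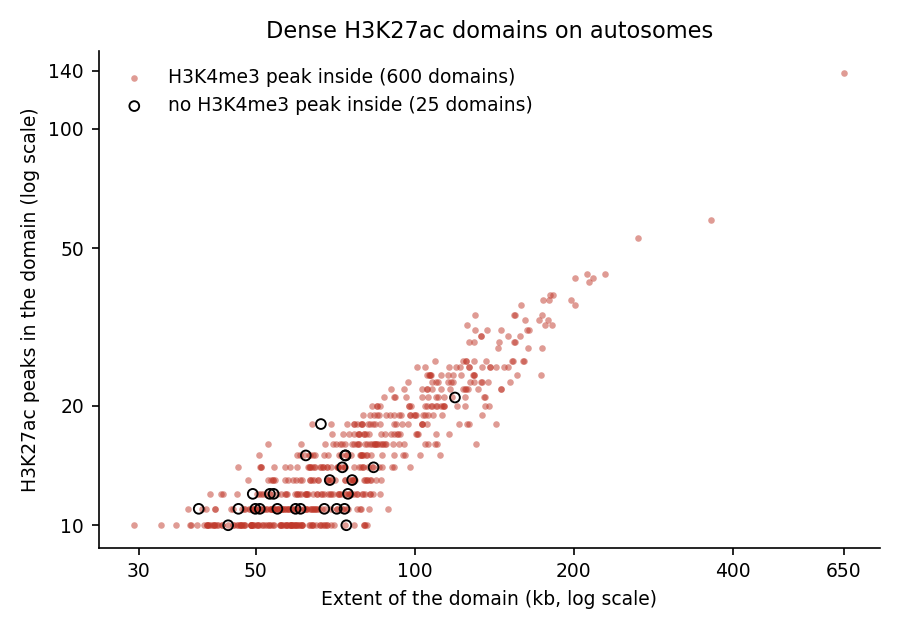
Each point is 1 of the 625 dense domains, with its extent in kb on the horizontal axis and its number of H3K27ac peaks on the vertical axis, both on log scales. Filled points are the 600 domains with an H3K4me3 peak inside and open circles the 25 without, which hold at most 21 H3K27ac peaks, and the domain at the upper right holds 138.

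Together the dense domains spanned 52.6 Mb, or 5.48% of the autosomes, and contained 31.4% of all autosomal H3K27ac length. The H3K27ac-only peaks alone made up 10.2 Mb, which is 70.5% of the acetylated length of these domains and 22.1% of that of the autosomes. Acetylation was spread over many peaks in most domains: the widest peak held a median of 21.5% of a domain's H3K27ac length, with a range of 3.53% to 57.7%. The widest peak was H3K27ac-only in 370 of 625 domains (59.2%) and overlapped H3K4me3 alone in 213 (34.1%). The peak of the highest fold enrichment, the peak caller's ratio of signal to local background, was H3K27ac-only in 379 domains (60.6%) and overlapped H3K4me3 alone in 194. Over all H3K27ac peaks of dense domains, 77.5% were H3K27ac-only and 16.7% overlapped H3K4me3 alone. The leading peak by either measure was thus H3K27ac-only in most domains, but less often than the peaks of these domains in general, and more often on H3K4me3. Overlap with H3K4me3 rose with width in dense domains, from 13.2% of peaks under 400 bp to 28.3% at 1600 bp or more. The part of width in this difference was not tested.

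The rule counts peaks, and other ways of ranking picked partly other domains. Of the 625 joined domains with the most H3K27ac length, 491 (78.6%) were dense domains. Ranked by the sum of width times fold enrichment the number was 478, ranked by extent it was 540, and ranked by the share of length covered it was 13. Single peaks, which cover the whole of their own extent, are not counted in this last ranking. The 90th percentile of H3K27ac cover was 38.9% in dense domains and 47.0% in the domains of 2 to 9 peaks. At the threshold itself the change was gradual. The 149 domains of 9 peaks, just outside, had a median extent of 47.1 kb, 21.9% H3K27ac cover, 7 H3K27ac-only peaks, 2 H3K4me3 peaks and 0 H3K27me3 peaks. The 106 domains of 10 peaks, just inside, had medians of 53.2 kb, 24.4%, 8, 2 and 1.

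Dense domains took a larger share of small autosomes than of large ones. On the 5 autosomes of 50 Mb or more, 193 dense domains occupied 2.56% of the span, on the 7 of 20 to 50 Mb 159 domains occupied 6.93%, and on the 20 under 20 Mb 273 domains occupied 14.8%. Per Mb there were 0.317, 0.841 and 1.69 dense domains. The domains themselves were of similar size in the 3 classes, with median extents of 72.5, 76.7 and 73.8 kb and medians of 13, 15 and 14 peaks. The small chromosomes thus differed in how many dense domains they held and little in how large those were. The extremes were chromosome 26, with 39.5% of its span and 66.4% of its H3K27ac peaks in 22 dense domains, and chromosome 24, with 56.6% of its H3K27ac peaks in 20. Chromosome 2 had 33 dense domains in 1.64% of its span. Chromosomes 16, 30, 31 and 32 had none, and they also had few H3K27ac peaks, from 28 to 62 each. Since the rule asks for peaks close together, the overall peak density moves with these values. It was 117 H3K27ac peaks per Mb on chromosome 26, 109 on chromosome 24 and 33.4 on chromosome 2, and outside the dense domains it was still 65.1, 69.4 and 30.9. Gene density is known to be higher on the small chromosomes of birds, and its part in these counts was not tested.

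**Figure D2:**
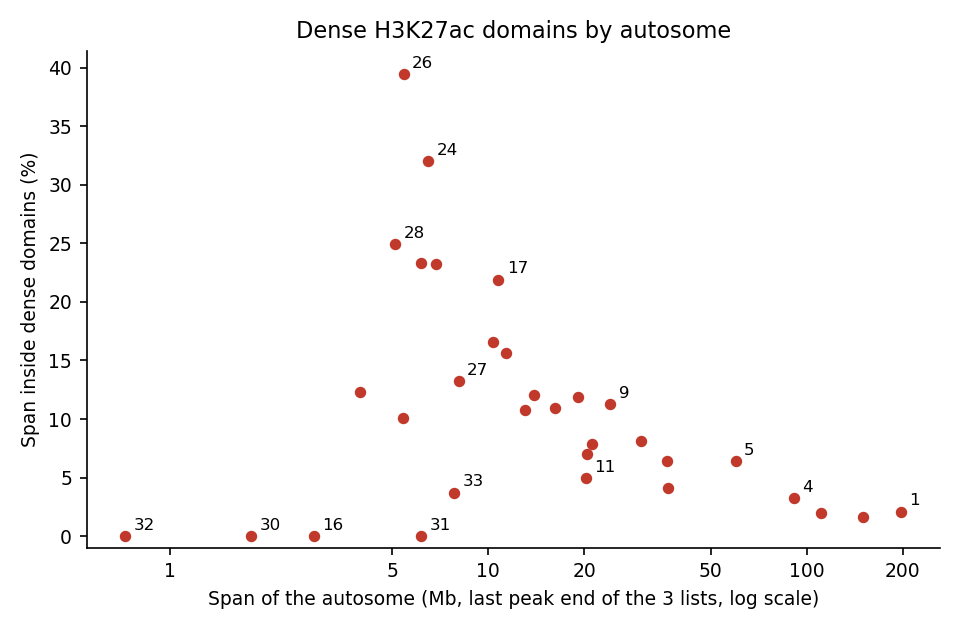
Each point is an autosome, with its span in Mb on a log axis and the percentage of that span inside dense domains. Chromosome 26 is highest at 39.5% and chromosome 2 reaches 1.64%, while the autosomes 16, 30, 31 and 32 have no dense domain.

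The spacing of dense domains along a chromosome varied widely. The distance from one to the preceding dense domain had a median of 332 kb, with quartiles of 83.9 and 1046 kb. In 105 of 597 cases (17.6%) it was within 50 kb.

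The H3K27ac-only members were wider than H3K27ac-only peaks elsewhere, whereas their median fold enrichment was close to that of the others. Their width ran from 251 to 21843 bp with a median of 914 bp, against medians of 718 bp in the domains of 2 to 9 peaks and 515 bp for single peaks. Peaks of 1600 bp or more numbered 1958 of the 7832 members, against 14.1% in the domains of 2 to 9 peaks and 6.25% of the single peaks. The median fold enrichment was 2.63, 2.62 and 2.62 in the same order. The share of peaks with a q-value of 0.01 or less was 57.5%, 49.3% and 41.3%. Peaks with a fold enrichment of 3 or more made up 22.7% of the members, 21.1% in the domains of 2 to 9 peaks and 19.0% of the single peaks. Fold enrichment thus differed by less between the groups than width did. Because no 2 peaks were listed closer than 1.01 kb, acetylated segments nearer than that appear as 1 wide peak.

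Within the domains, the width of the members declined slightly from the centre outward. With each domain divided into 3 parts by relative distance from its centre, members in the inner part had a median width of 977 bp, those in the middle part 924 bp and those in the outer part 866 bp. The first and last peaks of a domain had a median of 797 bp. The median fold enrichment moved by less, with 2.64, 2.64 and 2.61 in the 3 parts and 2.59 at the first and last peaks.

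The 5 widest members were all over 13 kb, and each held 27.9% to 47.1% of the H3K27ac length of its domain. The widest, on chromosome 14 from 3597164 to 3619006, was 21843 bp long with a fold enrichment of 3.18 and held 47.1% of the H3K27ac length of a domain of 12 peaks. The next, on chromosome 17 from 2380352 to 2397871, was 17520 bp long with a fold enrichment of 3.11, in a domain of 18 peaks. The other 3 were 14044 bp on chromosome 24, 13924 bp on chromosome 33 and 13812 bp on chromosome 4. Each was listed as a single peak, and acetylated segments closer than 1.01 kb would appear joined in it. As members they overlap neither of the other marks by definition.

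The members of the highest fold enrichment were of mixed width. The first, on chromosome 14 from 2718678 to 2718967, was 290 bp long with a fold enrichment of 6.81, and 25 of the 26 H3K27ac peaks of its domain were H3K27ac-only. The second, on chromosome 6 from 23200827 to 23202368, was 1542 bp long with 6.72. The other 3 had 6.28 on chromosome 5, 5.93 on chromosome 26 and 5.73 on chromosome 9, with widths of 1387, 334 and 663 bp. None of these peaks was among the 5 widest, and each held under 7% of its domain's acetylated length (1.35% to 6.66%).

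The first question the other marks allow is how many acetylated peaks of a dense domain lay away from H3K4me3 and H3K27me3. In dense domains 77.5% of the 10105 H3K27ac peaks overlapped neither mark (76.7% to 78.3%), against 73.3% of all autosomal H3K27ac peaks. The share was 73.6% (73.0% to 74.1%) in the domains of 2 to 9 peaks and 67.5% (66.5% to 68.4%) for single peaks. The 3 intervals do not overlap, and the share was highest in the dense domains.

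H3K4me3 and H3K27me3 did not contribute equally to that order. H3K4me3 was found on 18.8% of the H3K27ac peaks in dense domains (18.1% to 19.6%), on 20.9% in the domains of 2 to 9 peaks and on 24.1% of single peaks, with a background of 21.1%. H3K27me3 was found on 5.84% (5.39% to 6.31%), 9.06% (8.70% to 9.42%) and 14.3% (1230 of 8629 peaks), with a background of 9.34%. The ratio of dense to single was thus 0.781 for H3K4me3 and 0.410 for H3K27me3. The H3K4me3 shares include peaks that also overlapped H3K27me3. H3K4me3 alone was found on 16.7% (15.9% to 17.4%), 17.4% (16.9% to 17.8%) and 18.3% (17.5% to 19.1%) in the same order. These shares differed little, and the first 2 intervals overlap. Peaks with all 3 marks made up 2.18% in dense domains (220 peaks), 3.55% in the domains of 2 to 9 peaks and 5.84% of single peaks.

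A wider peak offers more bases for an overlap, so the shares were read within widths. For H3K27ac peaks under 400 bp, from 400 to under 800 bp, from 800 to under 1600 bp and of 1600 bp or more, H3K27me3 was found on 5.48%, 5.78%, 6.21% and 5.76% in dense domains. In the domains of 2 to 9 peaks the values were 9.26%, 9.22%, 9.07% and 8.45%, and for single peaks 15.3%, 13.0%, 15.1% and 9.99%. In each width class the dense domains were the lowest, with intervals that overlap neither of the other groups. H3K4me3 rose with width in all 3 groups, from 13.2% to 28.3% in dense domains and up to 43.7% for single peaks. The dense domains were again lowest in each width class. This order of the H3K4me3 shares did not hold once H3K27ac peaks within 3 kb were merged, when the ratio of dense to single became 1.04. That of the H3K27me3 shares became 0.807.

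**Figure D3:**
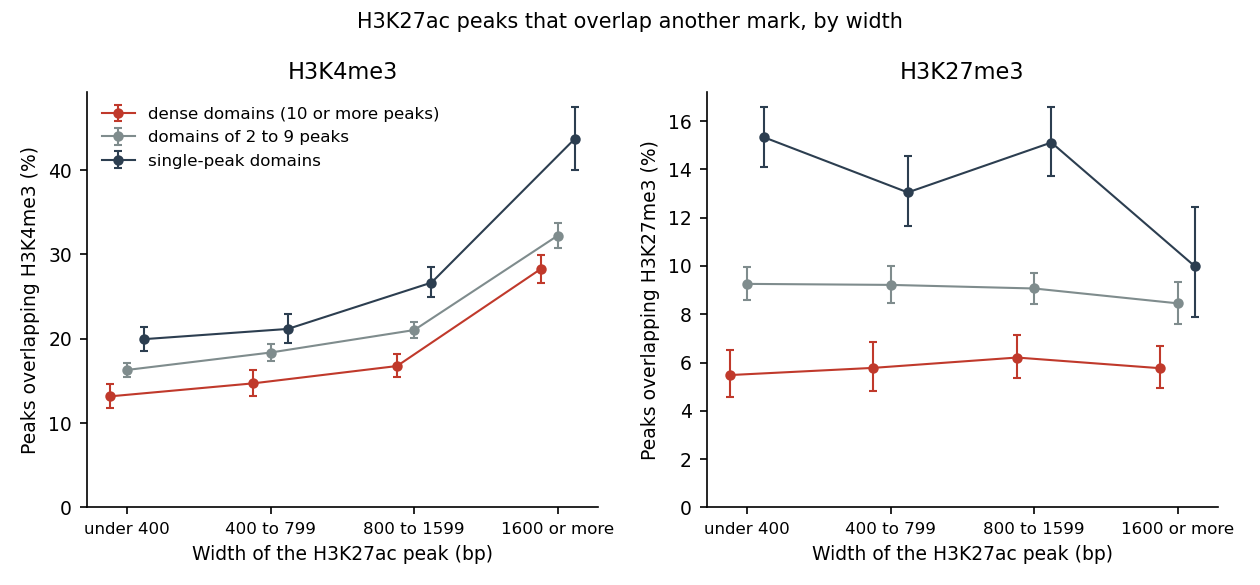
The percentage of H3K27ac peaks that overlap an H3K4me3 peak (left) or an H3K27me3 peak (right) is plotted by width class in bp, with exact 95% intervals as bars, for dense domains, domains of 2 to 9 peaks and single peaks. Dense domains are lowest in each class, from 13.2% to 28.3% for H3K4me3 and from 5.48% to 6.21% for H3K27me3.

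The low share of H3K27me3 was found on autosomes of each size. It was 5.37% in dense domains and 15.2% for single peaks on autosomes of 50 Mb or more, 5.82% and 12.3% on those of 20 to 50 Mb, and 6.15% and 12.2% on those under 20 Mb. The domains of 2 to 9 peaks were nearer, with 9.76%, 8.53% and 7.97% in the same order. Under 20 Mb the intervals were 5.48% to 6.88% in dense domains and 7.28% to 8.70% in the domains of 2 to 9 peaks. Inside the dense domains, the first and last H3K27ac peaks overlapped H3K27me3 in 7.36% (5.97% to 8.95%) and the peaks between them in 5.62% (5.15% to 6.12%). These intervals overlap by a small margin.

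H3K4me3, the promoter mark, was present in nearly every dense domain. At least 1 H3K4me3 peak lay in 600 of 625 (96.0%, 94.2% to 97.4%), against a background of 41.5% of all joined domains. The domains compared differ in length, and the share was 77.9% in domains of 5 to 9 peaks and 24.1% for single peaks. The number of H3K4me3 peaks per dense domain had a median of 3 and a maximum of 26, and across the 625 domains it followed the extent with a Spearman's rho of 0.49. The dense domains thus mostly combined several H3K4me3 peaks with a larger number of H3K27ac-only peaks, of which the median was 11.

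Per length the excess of H3K4me3 was smaller. H3K4me3 covered 3.25% of the length of dense domains, 2.23% of flanks of up to the same length on each side and 1.69% of the autosomes. The ratio of inside to flanks was 1.46, and it was 1.88 for the domains of 5 to 9 peaks. In the gaps between H3K27ac peaks H3K4me3 covered 1.47%, against 1.64% of the flanks outside H3K27ac. On the acetylated bases it covered 7.95% in dense domains and 10.7% in the flanks. Per base H3K4me3 was thus not higher in dense domains than in their flanks, either on H3K27ac peaks or between them. Its excess over the flanks goes with the larger acetylated share of the domains (27.5% of their length, against 6.53% of the flanks), which the rule selected. Against all autosomal length outside H3K27ac, of which H3K4me3 covered 1.24%, the 1.47% in the gaps was higher. Where H3K27ac peaks on H3K4me3 were left out before joining, the ratio of inside to flanks was 0.573. This value is partly set by that choice, since domains can then no longer be joined through such peaks or end on them. Of single domains, 389 had more H3K4me3 cover inside than in their flanks and 236 had less.

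The 2455 H3K4me3 peaks inside dense domains were 9.70% of those on autosomes. Of these, 1962 (79.9%, 78.3% to 81.5%) overlapped H3K27ac, against a background of 36.6% of all autosomal H3K4me3 peaks. That background includes 14239 H3K4me3 peaks outside joined domains, which by definition overlap no H3K27ac, so the excess over it is largely set by the rule. In the domains of 2 to 9 peaks the share was 79.8% (78.8% to 80.7%), and the 2 intervals overlap. They did stand lower in overlap with H3K27me3. This was 10.3% of the H3K4me3 peaks in dense domains (9.13% to 11.6%), 15.2% in the domains of 2 to 9 peaks, 23.7% at single peaks and 24.1% outside joined domains. Among H3K4me3 peaks that also overlapped H3K27ac it was 10.9%, 16.2% and 23.7% in the first 3 places. The median width of H3K4me3 peaks was 510 bp in dense domains and 506 bp in the domains of 2 to 9 peaks.

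The H3K27ac-only members were listed closer to H3K4me3 than single H3K27ac-only peaks. Their distance to the nearest H3K4me3 peak had a median of 9.33 kb, against 10.6 kb in the domains of 2 to 9 peaks and 17.6 kb for single peaks. Within 10 kb of H3K4me3 lay 52.6% of the members (51.5% to 53.7%), 48.0% and 29.9%. To the nearest H3K27me3 peak the medians were 25.9, 22.7 and 22.2 kb, and 22.3% of the members lay within 10 kb (21.4% to 23.3%) against 25.8% in the domains of 2 to 9 peaks (25.2% to 26.5%) and 1457 of 5821 single peaks (23.9% to 26.2%). The distance to H3K4me3 is partly set by the rule, since a single H3K27ac peak has no other acetylated peak, on H3K4me3 or not, within 12.5 kb. With H3K27ac peaks on H3K4me3 left out before joining, the ratio of dense to single distances to H3K4me3 moved from 0.530 to 0.972.

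H3K27me3, the Polycomb mark, was called in many dense domains and covered little of their length. At least 1 H3K27me3 peak lay in 425 of 625 (68.0%, 64.2% to 71.6%), against a background of 23.5% of all joined domains and 41.9% in the domains of 5 to 9 peaks. The domains compared differ in length, so these shares show no excess per length. The number per dense domain had a median of 1 and a maximum of 13, and 200 domains had none. The share of domains with H3K27me3 depended on the settings and moved both ways. It fell to 38.9% with a joining gap of 5 kb and 30.7% at a q-value of at most 0.01. At a fold enrichment of at least 3 it fell to 42.9%, which rests on 7 domains. The q-value and fold limits were applied to the H3K27me3 peaks as well, which leaves fewer of them. With H3K27ac peaks on H3K4me3 left out before joining the share was 62.8%. It rose to 83.6% with a joining gap of 25 kb, 84.3% after merging within 3 kb and 74.6% with at least 15 peaks. Both marks were present in 407 domains, H3K4me3 without H3K27me3 in 193, H3K27me3 without H3K4me3 in 18 and neither in 7. In 16 domains every H3K27ac peak was H3K27ac-only.

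By length, H3K27me3 was lower inside dense domains than around them. It covered 1.08% of the domains, 1.60% of their flanks and 1.69% of the autosomes, a ratio of inside to flanks of 0.675. For the domains of 5 to 9 peaks this ratio was 0.933. These domains and their flanks are shorter, so the 2 ratios are not like for like. In the last 10 kb inside the edge, H3K27me3 covered 1.47% in dense domains and 1.48% in domains of 5 to 9 peaks. From 10 to 20 kb inside, where only longer domains contribute, it covered 1.08% and 0.904%. At like depth the dense domains were thus not lower. On the acetylated bases H3K27me3 covered 1.91% in dense domains, 3.95% in the domains of 2 to 9 peaks and 3.59% in the flanks. That 1.91% was above the 1.69% of the autosomes as a whole. Against the flanks and the domains of 2 to 9 peaks, the lower cover was also seen away from the acetylated bases. In the gaps between H3K27ac peaks, H3K27me3 covered 0.765% in dense domains, 1.10% in the domains of 2 to 9 peaks and 1.46% of the flanks outside H3K27ac. The gap cover was lower in dense domains than in domains of 2 to 9 peaks in each size class of autosome, with 0.551% and 1.12% at 50 Mb or more, 0.831% and 1.02% at 20 to 50 Mb, and 0.872% and 1.15% under 20 Mb. These cover values carry no interval. Of single domains, 342 had less H3K27me3 inside than in their flanks, 240 had more and 43 had none in either place. This split is not adjusted for length, and the flanks of both sides together can be longer than the domain. For the 200 domains without an H3K27me3 peak, any cover in the flanks counts as less inside.

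The 866 H3K27me3 peaks in dense domains were 4.34% of those on autosomes, in domains that span 5.48% of them. They were short, with a median of 432.5 bp against 485 bp outside joined domains and 549 bp at single peaks. Their longest was 8259 bp, while the longest was 74129 bp at domains of 2 to 9 peaks and 45598 bp outside joined domains. Of the 866, 68.6% overlapped H3K27ac (65.4% to 71.7%), against a background of 20.3% of autosomal H3K27me3 peaks and 74.9% in the domains of 2 to 9 peaks. That background includes 14870 H3K27me3 peaks outside joined domains, which by definition overlap no H3K27ac. H3K4me3 was found on 29.0% of the 866. The longest H3K27me3 blocks of these lists were thus outside the dense domains.

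Around the edges the marks changed over short distances. H3K27ac is absent from the first 10 kb outside by the joining rule. H3K4me3 covered 2.92% of the bins from 20 to 30 kb inside the edge, 3.12% from 10 to 20 kb and 3.87% in the last 10 kb, then 1.57% in the first 10 kb outside and 2.17% to 2.53% from there to 100 kb. H3K27me3 covered 0.968%, 1.08% and 1.47% of the same inner bins, 1.32% of the first 10 kb outside and 1.29% to 1.90% beyond. The rule places an H3K27ac peak at each edge and none in the next 10 kb, and most H3K4me3 peaks inside overlap H3K27ac, so the H3K4me3 step at the edge is partly set by the rule. The domains of 5 to 9 peaks had a like step in H3K4me3, from 3.51% to 1.45%. For them H3K27me3 was 0.904% from 10 to 20 kb inside and 1.48% in the last 10 kb, so that it was lower away from the edge in both groups. The deeper bins come only from longer domains. Dense domains gave 1250, 1230 and 894 bins from the edge inward, and domains of 5 to 9 peaks 2788 and then 650. Distance from the edge and length of the domain thus cannot be told apart here.

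**Figure D4:**
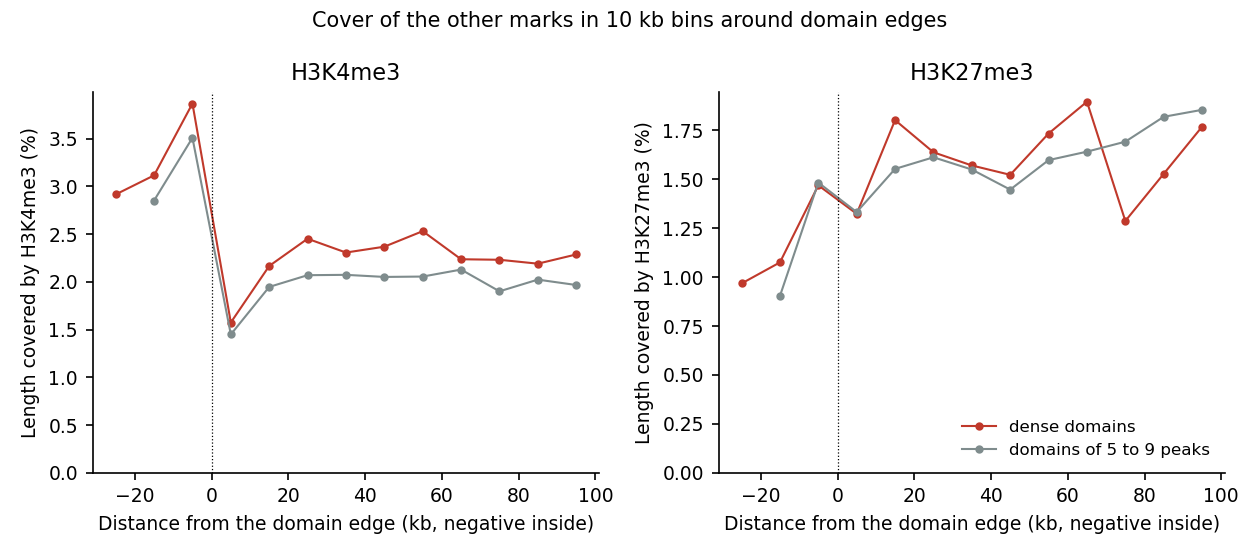
The percentage of length covered by H3K4me3 (left) and H3K27me3 (right) is plotted in bins of 10 kb by distance from the domain edge in kb, negative inside, for dense domains and for domains of 5 to 9 peaks where at least 100 bins were available. In dense domains H3K4me3 drops from 3.87% to 1.57% across the edge, and H3K27me3 falls to 0.968% in the innermost bin. Deeper bins come only from longer domains.

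Across the 625 domains, cover by H3K27ac and cover by the other marks were only weakly related. Spearman's rho was 0.17 between H3K27ac cover and H3K4me3 cover and -0.19 between H3K27ac cover and H3K27me3 cover. The number of H3K27ac peaks on H3K4me3 and the number of H3K27ac-only peaks had a rho of 0.14. These are descriptions, since the domains share their libraries and the extent of a domain enters each count.

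The domain with the most peaks lay on chromosome 4 from 561855 to 1212639, 651 kb in all. It held 138 H3K27ac peaks, 109 of them H3K27ac-only, with 26 H3K4me3 and 13 H3K27me3 peaks, the most of each mark in any dense domain. H3K27ac covered 34.6% of it and its widest peak was 7927 bp, so that it was built from many peaks and not from a few blocks. In successive segments of 100 kb from its start it held 25, 18, 21, 23, 23 and 19 H3K27ac peaks, and 9 in the remaining 50.8 kb. The peaks were thus spread evenly over the length, with H3K27ac cover between 28.7% and 44.1% in each segment. H3K27me3 covered 1.45% of it and 0.233% of its flanks, and H3K4me3 2.02% and 3.22%, both opposite in direction to the dense domains as a whole. These flanks were far shorter than the domain, since neighbouring dense domains ended at 544419 and began at 1319456. The opposite direction thus rests on little flank length. With a joining gap of 5 kb the largest piece of it held 20 peaks, and with 25 kb it grew to 159.

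**Figure D5:**
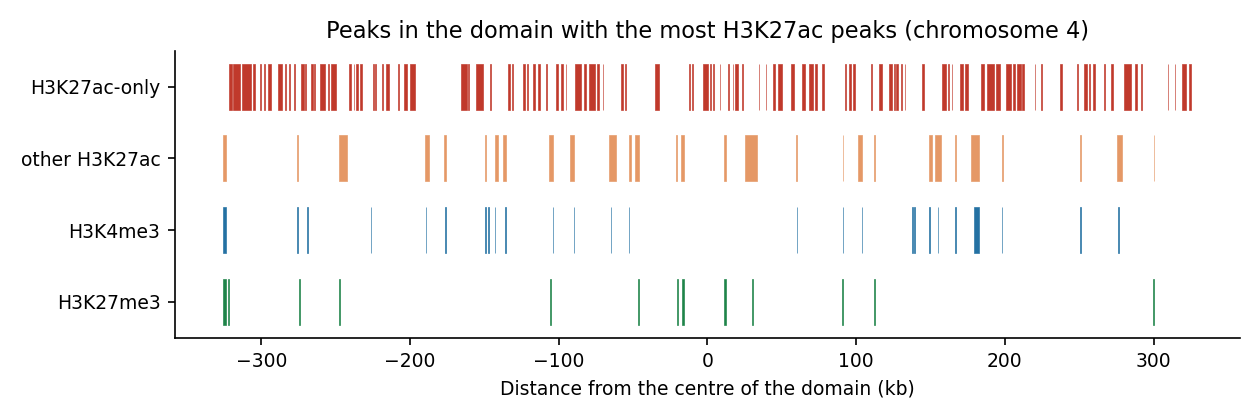
Peaks in the domain on chromosome 4 with the most H3K27ac peaks are drawn to scale against distance from its centre in kb, in rows for H3K27ac-only peaks, other H3K27ac peaks, H3K4me3 and H3K27me3. The 109 H3K27ac-only peaks are spread over the 651 kb, the 26 H3K4me3 peaks fall in most parts of it, and the 13 H3K27me3 peaks are thin and scattered.

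The 9 domains that followed held 38 to 59 H3K27ac peaks. The second, on chromosome 13 from 9460238 to 9824205, had 59 peaks over 364 kb, 45 of them H3K27ac-only, with H3K27me3 on 1.30% of its length and 4.49% of its flanks. The third, on chromosome 28 from 4517126 to 4782263, had 53 peaks over 265 kb with 13 H3K4me3 peaks and 1 H3K27me3 peak. A domain on chromosome 24 from 364772 to 566112 had 42 peaks over 201 kb and no H3K27me3 peak, while H3K27me3 covered 3.63% of its flanks. Those flanks were also cut short, by dense domains that ended at 255278 and began at 583963. A domain on chromosome 26 from 2042032 to 2256079 had 41 peaks and the highest H3K27ac cover of the 10, 47.4%. The domain on chromosome 14 from 14428004 to 14610991 was the richest of them in H3K27ac-only peaks for its number, with 33 of 38. The others, on chromosomes 10, 14, 13 and 20, had 43, 43, 42 and 38 peaks. All 10 held H3K4me3, from 6 to 26 peaks, and 9 of them held H3K27me3.

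The domains of the highest H3K27ac cover had 11 to 15 H3K27ac peaks over 54.0 to 96.1 kb. The highest H3K27ac cover, 68.4%, was found on chromosome 33 from 5843658 to 5897624, where 11 peaks covered most of 54.0 kb and 10 of them were H3K27ac-only. Next came chromosome 11 from 18628189 to 18724240 with 61.8% and 15 peaks, and chromosome 14 from 3571763 to 3652353 with 57.6% and 12 peaks, the domain of the widest member. Domains on chromosomes 15 and 26 followed with 57.0% and 54.2%. These 5 held 1 to 6 H3K4me3 peaks and at most 1 H3K27me3 peak each, and none was among the 10 with the most H3K27ac peaks.

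A few dense domains held a large number of H3K4me3 peaks, which is a count and not a cover. On chromosome 28 from 2435428 to 2607039, 20 H3K4me3 peaks lay over 172 kb, 18 of 33 H3K27ac peaks overlapped them, and 12 were H3K27ac-only. H3K4me3 covered 9.39% of this domain and 4.50% of its flanks. On chromosome 21 from 2728988 to 2907557 there were 14 H3K4me3 peaks and 18 of 33 H3K27ac peaks were H3K27ac-only. H3K4me3 covered 4.92% of this domain, near the upper quartile of 4.40% of all dense domains. At the other end, 25 dense domains held no H3K4me3 peak at all. The largest of these, on chromosome 6 from 11994134 to 12113329, had 21 H3K27ac peaks over 119 kb, of which 20 were H3K27ac-only. On chromosome 13 from 9241931 to 9308367, 18 peaks lay in 66.4 kb with 16 H3K27ac-only, and on chromosomes 20 and 26 domains of 15 peaks had 14 each. On chromosome 9 from 5246976 to 5309177, all 15 peaks of 62.2 kb were H3K27ac-only, and no peak of either other mark lay inside. These stretches are arrays of acetylated peaks without a promoter mark called in them. Which genes lie beside them is not analysed here.

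H3K27me3 was abundant in a small number of dense domains. On chromosome 9 from 14242096 to 14302444 it covered 15.3% of a domain of 10 H3K27ac peaks, with 10 H3K27me3 peaks, and 5 of the 10 H3K27ac peaks overlapped it. This was the highest H3K27me3 cover of any dense domain, and its flanks were also high at 7.44%. On chromosome 24 from 2372054 to 2545344 there were 10 H3K27me3 peaks over 173 kb with a cover of 5.89%. On chromosome 22 from 2716194 to 2819533 there were 9, with 7.37%, and on chromosome 26 from 3554791 to 3645247 there were 8, with 5.07%. In these 4 domains H3K27ac cover was 13.3% to 20.8%, below the median of 26.2%, whereas the domain on chromosome 4, with the most H3K27me3 peaks, had 34.6%. High H3K27me3 cover also occurred with H3K27ac cover above the median, as on chromosome 27 from 6389819 to 6419249, with 8.97% and 32.5%. This domain was picked after its values were seen, and its H3K27ac cover was below the upper quartile of 33.1%. Both marks were thus called in the same stretches, partly on the same bases, and pooled tissue cannot show whether both occur in the same cells.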

How the data were processed

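The authors processed the reads of each library with the NF-core ChIP-seq pipeline and the aligner BWA against the chicken assembly galGal6, and MACS2 then gave a list of broad peaks for each, with a false discovery rate limit of 0.1. Whether the input served as control is not given in the sources used here. The deposited lists give, per peak, a fold enrichment over local background, which is a linear ratio, −log10 of the p-value and of the q-value, and a score, each as the authors' peak caller wrote it. The smallest deposited −log10 q-value was 1.01. The score and p-value entered no result. The deposited lists hold no read counts, so the depth behind a peak is unknown.

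Groups were taken from the titles, with 1 library per mark. Positions are 1-based on galGal6, and overlap was counted from 1 bp. Whole-number chromosome names were taken as autosomes, and the span of each as its last peak end over the 3 lists. Flanks reached up to the domain's own length on each side. They ended earlier at the nearest dense domain or at the end of the span, so some were shorter than the domain. Flanks of neighbouring domains could overlap. Overlap, joining and cover were tested on simulated peaks with known answers. Python 3.11.15, pandas 2.3.3 and scipy 1.17.1 were used. The members, lists and comparisons were chosen with earlier results of these data known. The domains named are the 10 with the most H3K27ac peaks, the 5 with the most H3K27ac-only peaks, the 5 with the highest H3K27ac cover, the 5 with the most H3K4me3 peaks, the 5 with the most H3K27me3 peaks and, without H3K4me3, the 5 with the most H3K27ac peaks, 26 in all. The peaks named are the 5 widest and the 5 of the highest fold enrichment among the H3K27ac-only members. Chromosomes were picked for mention with their values known. Alternatives changed the joining gap, the q-value, the fold enrichment, the merging of peaks, the minimum number of peaks, the overlap and the flank. A further one left out H3K27ac peaks on H3K4me3 before joining, with the H3K4me3 list unchanged. Gene lists and sequence motifs were planned, and are not analysed here because the gene table at hand follows another assembly.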

Additional observations from a re-analysis of the deposited data

Results flagged for a closer look

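The same joining applied to chromosome Z, which the autosomal rule leaves out, gave 8 further dense domains from its 1932 H3K27ac peaks, the largest with 17 peaks. On chromosome W and on the unplaced sequences, with 32 and 46 H3K27ac peaks, no joined domain held more than 3 peaks. The 8 domains were flagged because they lie in data outside the main measurement and exceed the limit of 3 that a count of 0 allows. Chromosome Z belongs to the same H3K27ac list and no count of 0 was to be assumed there. Passing that limit therefore carries no weight. They enter none of the values above.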

How the results depend on the processing

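Of 90 values of the 12 main results under 9 alternatives, 47 kept their side or size, 41 moved and 2 reversed. The number of dense domains moved in the 7 settings that change joining or peaks, as did that of H3K27ac-only members, which was 8043 when an overlap needed 50% of the shorter peak. With a joining gap of 5 kb there were 113 domains and 1127 members, with 25 kb 1059 and 16864, with a q-value of at most 0.01 150 and 1691, and with a fold enrichment of at least 3 only 7 and 65. With H3K27ac peaks merged within 3 kb there were 191 and 1630. With H3K27ac peaks on H3K4me3 left out before joining there were 339 and 4609, and with at least 15 peaks 280 and 4771. The share of domains with H3K4me3 was 90.3%, 98.5%, 82.7%, 100%, 99.0%, 80.5% and 98.2% in this order of settings, and the share with H3K27me3 38.9%, 83.6%, 30.7%, 42.9%, 84.3%, 62.8% and 74.6%. The share of H3K27ac peaks with neither mark moved to 76.4% at 25 kb, 85.5% at the stricter q-value and 84.4% at the fold of 3. It was 66.4% after merging and 79.6% when an overlap needed 50% of the shorter peak. With H3K27ac peaks on H3K4me3 left out before joining it was 95.7%, since only H3K27me3 could then overlap. The stricter q-value and fold limits were applied to the lists of all marks, so H3K4me3 and H3K27me3 peaks were also fewer. H3K4me3 cover inside over flanks reversed to 0.573 with H3K27ac peaks on H3K4me3 left out before joining. The H3K4me3 list was unchanged there, but domains could no longer be joined through such peaks or end on them. The fall is thus partly set by that choice. The H3K4me3 share of H3K27ac peaks, dense over single, reversed to 1.04 after merging. H3K27me3 cover inside over flanks fell to 0.359 at the stricter q-value and 0.313 at the fold of 3. H3K27me3 cover of gaps, dense over 2 to 9 peaks, was 0.377 at 5 kb and 0.0053 at the fold of 3, which rests on 7 domains. The H3K27me3 share of H3K27ac peaks, dense over single, was 0.234 at the stricter q-value and 0.807 after merging. The ratio of distances to H3K4me3 was 0.972 with H3K27ac peaks on H3K4me3 left out before joining. The cause of these moves was not tested unless named. H3K27me3 ratios stayed below 1 in each alternative run. The peak numbers of the 10 largest domains moved in 53 of 70 values. No paired analysis was possible because there was 1 library per mark. The H3K4me3 share ratio was not run with H3K27ac peaks on H3K4me3 left out, nor were gene or motif alternatives. The 4 ratios of gap cover, overlap shares and distance were added after seeing the data. With 1 library per mark and unknown depth, a peak that was not called may be present below the threshold.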
